A study of Mus musculus with 36 samples.

Results

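The 53 array probes described here were bright on day 6 of doxycycline induction in secondary mouse embryonic fibroblasts and had no clear rise on day 1. Embryonic stem (ES) with induced pluripotent stem (iPS) cells, and untreated primary fibroblasts, had mean levels within 0.6 log10 units of each other. On the log2 ratios used below, stem cell minus primary fibroblast differences ran from -1.45 to 1.65. In some members neither of these states was above background. The 53 probes were chosen from the 25030 probes of the deposited series matrix by 4 conditions on its log10 sample brightness. The mean of ES and iPS arrays had to lie within 0.6 of the mean of untreated primary fibroblasts. The day 6 level with doxycycline and no tamoxifen had to be at least 2.5. The doxycycline difference without tamoxifen had to be under 0.15 on day 1 and at least 0.6 on day 6. Values of the ES, iPS, untreated primary fibroblast and tamoxifen-free day 1 and day 6 arrays therefore chose the members, and for these arrays values are given as description only. The tests rest on the day 3 cultures and on the tamoxifen-treated cultures, which the choice did not use.

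RNA was measured on 36 two-colour Agilent arrays in 18 groups of 2, each array carrying one sample in Cy3 against a common pool of mouse cell line RNA mixed with ES cell RNA in Cy5. Secondary fibroblasts, labelled 2ndMEF-KOS-ZERT2 and clone #1 of a C57Bl/6 x 129 hybrid, were cultured in ES medium with LIF for 1, 3 or 6 days with doxycycline (Dox, 1.5 µg/ml) and tamoxifen (Tmx, 200 nM), with either alone, or with neither. All 12 of these groups carried the same KOS-ZERT2 transgene, including the uninduced ones, and came from 1 clone. The other groups were iPS(KOS-ZERT2) cells, v6.5 ES cells, MEF2 ZERT2 fibroblasts with the Zscan4ERT2 transgene with and without Tmx, and MEF3 wild fibroblasts with and without Tmx, the fibroblasts being F1 hybrids from V6.5 grown in fibroblast medium. The protocols of the MEF3 arrays labelled Tmx+, and of replicate 2 of Dox-Tmx+ day 1, mention no tamoxifen. The labels do not say that replicates came from separate cultures, so the p-values measure the spread between arrays, which may be technical. Precision is limited by having 2 arrays in each group.

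Klf4, Oct4 and Sox2 are transcription factors that, expressed together, can return fibroblasts to a pluripotent state over days to weeks. Cells on this route pass through intermediate stages, and genes can be switched on in them that neither the starting fibroblast nor the final stem cell expresses strongly. ERT2 is a modified oestrogen receptor domain that keeps a fused protein inactive until a tamoxifen compound binds it, and Zscan4 is a zinc finger protein of early mouse embryos and of a small fraction of ES cells.

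The files name each probe by its identifier alone and give its sequence but no gene and no position, so the members are named by probe identifier, their functions are not given, and the labelled cell types could not be checked against marker genes. The first 30 of the 60 bases, 5′ to 3′, are shown for the 4 members whose profiles are described in most detail. Z00024307-1 had the largest day 6 difference in the Tmx cultures. Z00021727-1 and Z00024904-1 were above background only with doxycycline on later days. Z00048762-1 peaked on day 3.
Z00024307-1: caggacaggaagatgtggcttgtgtcccag
Z00021727-1: actctagggcataacaaacaccagcctaca
Z00024904-1: caaagaagaaagaacgaggaagtgatcctg
Z00048762-1: tcaaaaccaatggggtatggccacacaccc

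No 2 members shared a run of 20 bases. Described here are 3 members that shared such a run with 4 other probes of the array, whose readings can be set beside theirs. These pairs are shown as 30-base windows with the shared bases in capitals, the member first.
Z00054196-1: CGGTGGGACGCAATCACTAAAGGTTCATAT
Z00049101-1: CGGTGGGACGCAATCACTAAAGGTTCATAT
Z00057680-1: gtTGTCCATCAGAAAGTTGCTGTCATTtga
Z00010273-1: gcTGTCCATCAGAAAGTTGCTGTCATTcga
Z00057680-1: agAAGAACCCATTATTGGTGGCCAGCCTCA
Z00077679-1: AAGAACCCATTATTGGTGGCCAGCCTCAgg
Z00049715-1: gatgcCATGCTGTGTGCAGGAGAGATGGaa
Z00049863-1: tgtCATGCTGTGTGCAGGAGAGATGGgtgg
The shared run was 58 bases in the Z00054196-1 pair, longer than the windows shown. It was 25 and 28 bases in the 2 pairs of Z00057680-1 and 23 bases in the Z00049715-1 pair. Members had a median GC content of 45%, from 33.3% to 58.3%, against 43.3% over all 25030 probes. The motif AATAAA, the most common polyadenylation signal, was found on the printed strand in 3 members (5.66%), against 7.9% of all probes. Its reverse complement TTTATT was found in 2 members (3.77%), against 3.62% of all probes.

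The values below are log2 ratios of sample over the common pool after background correction and loess within each array, so 1 unit is a 2-fold step within a probe and levels of different probes cannot be compared. The pool channel was above background on all arrays for 34 members and on no array for 2. In the members without a measured pool signal on every array, the ratios rest partly or wholly on a dim pool channel. Tests were limma's moderated tests on all 36 arrays over 33099 probes that were well above background on both arrays of at least 1 group, two-sided, called at a Benjamini-Hochberg adjusted p under 0.05. All 53 members passed this filter. For 10 of them only Dox+ groups of day 3 or day 6, where they were bright, carried them through it. The doxycycline counts of day 6, of day 3 and of day 6 over day 1 are also given for the other 43. So is the count rising with doxycycline. Between 54.9% and 77.1% of probes were above background per array, and the median SD between the 2 arrays of a group was 0.0539 for members and 0.0472 for all probes kept. Each group lay on 1 slide. Dox+ and Dox- of a day lay on different slides, and the effects of slide and drug cannot be told apart there. In the secondary fibroblasts, Tmx+ and Tmx- of the same doxycycline state and day shared a slide, and in the primary fibroblasts Tmx+ and Tmx- did not. Day 3 and day 6 arrays were scanned on the same day and day 1 arrays on another, so in differences from day 1 scan day and time cannot be told apart. Primary fibroblast arrays had slides and scan days of their own, and ES and iPS arrays shared a separate slide. Slide, and for primary fibroblasts scan day, cannot be told apart from cell state. Primary fibroblast arrays had 54.9% to 64.9% of probes above background, against 74.7% and 72.5% on the Dox+Tmx+ day 6 arrays. In these bulk samples a change in RNA per cell and a change in the number of cells that carry it cannot be told apart.

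In the tamoxifen-treated cultures, all 53 members were higher with doxycycline on day 6, while 31.1% of all probes tested were, and none was lower, against 28.0% of all probes. The 53 include all 43 members that also passed the filter through other groups. These arrays were not used in choosing the members, but they come from the same experiment and the same slides as arrays that were. The median log2 difference between Dox+Tmx+ and Dox-Tmx+ was 2.71, with a range of 1.27 to 5.13, against a median of 0.00 over all probes tested. At least a 4-fold difference was called in 47 members, against 3.23% of all probes. In all 53 members both Dox+ arrays lay above both Dox- arrays, as in 36.1% of probes.

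Z00024307-1 had log2 ratios of 1.73 and 1.78 on the 2 Dox+Tmx+ day 6 arrays, against -3.40 and -3.36 on the 2 Dox-Tmx+ arrays. The arrays of each group lay within 0.1 of each other, and the groups were far apart. The difference was 5.13 (SE 0.087, limma adjusted p = 2.33e-24). It was above background on all 36 arrays, and its highest value outside the Dox+ day 3 and day 6 groups was -2.59, on a primary fibroblast array.

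Z00021727-1 read 4.86 and 4.84 on the Dox+Tmx+ day 6 arrays, against -0.08 and -0.07 on the Dox-Tmx+ arrays. It was well above background on none of the 28 arrays outside the Dox+ day 3 and day 6 groups, so only a bound can be given there. On day 6 it was at least 30.4-fold higher with doxycycline in the Tmx cultures (limma adjusted p = 4.82e-25). Each such bound is the lower of 2 values. One is the fold in the sample channel alone, with the dim group at the lowest signal above background on each array or at its own signal where that was higher. The other is the fold of the ratios to the pool. For Z00021727-1 the sample channel gave 44.4-fold. That channel is open to dye bias, because dyes were not swapped.

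The other large differences in the Tmx cultures on day 6 included 4.54 for Z00034626-1, 4.27 for Z00025108-1 and 4.22 for Z00024136-1. Z00025108-1 and Z00024136-1 were not well above background on the Dox-Tmx+ day 6 arrays and were at least 19.2-fold and at least 15.8-fold higher. The 5 next largest, Z00074008-1, Z00021998-1, Z00074275-1, Z00075844-1 and Z00022669-1, lay between 3.51 and 3.66. The smallest was 1.27 for Z00054196-1, with 1.59 for Z00070137-1, 1.60 for Z00049715-1, 1.60 for Z00075903-1 and 1.81 for Z00023868-1. The offset added to every signal before the log shrinks the differences of dim probes, so the order of dim and bright members by size is not firm.

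These 4 probes that share sequence with members moved with them. Z00049101-1 had a Dox+Tmx+ minus Dox-Tmx+ difference of 1.23 on day 6, beside 1.27 for Z00054196-1. Z00010273-1 had 2.96 and Z00077679-1 had 1.63, beside 3.06 for Z00057680-1, and Z00049863-1 had 1.83 beside 1.60 for Z00049715-1. All 4 passed limma's test, with a largest adjusted p of 5.35e-11. These probes fell outside the 53. Whether a probe and its partner read the same transcript was not tested, so the pairs are not counted as independent observations. Z00054196-1 and Z00049101-1 shared 58 of 60 bases, and their readings are not separate evidence.

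In the series matrix the day 6 level without tamoxifen was above the higher of the 2 end-state means in all 53 members, by a median of 1.05 log10 units and from 0.095 to 1.852. The choice required the end states to be close to each other and did not directly require day 6 to exceed them. It did require a high day 6 level, and a higher level with doxycycline than without it on that day. An excess over the end states is therefore favoured by the choice and is given as description only. The share of all probes with such an excess is not given. On the deposited scale the stem cell mean was above the fibroblast mean in 31 members and below it in 22, while on the log2 ratios it was above in 24 and below in 29. In the Tmx cultures, both Dox+ day 6 arrays lay above all 4 ES and iPS arrays and all 8 primary fibroblast arrays in 53 of 53 members. This held for 20.5% of all probes. The 53 include all 43 members that also passed the filter through other groups. The choice did not use these Tmx cultures. It did use the ES, iPS and untreated fibroblast arrays, and Dox+Tmx- day 6 arrays of the same slide. This excess is therefore favoured by the choice too.

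Z00024871-1 came nearest to a stem cell level. Its log2 ratios were 0.47 and 0.48 on the Dox+Tmx+ day 6 arrays, against -0.04 and -0.05 in iPS cells and -0.02 and 0.00 in ES cells. The 8 primary fibroblast arrays lay between -1.79 and -1.62, so the mean of stem cells minus that of primary fibroblasts was 1.65. Z00035584-1 ran the other way, with 2.89 and 3.03 on the Dox+Tmx+ day 6 arrays, -1.22 and -1.20 in iPS cells, -1.19 and -1.17 in ES cells, and -0.03 to 0.52 in primary fibroblasts. Its stem cell minus fibroblast difference was -1.45. All 4 of these differences from the end states were larger than the spread between arrays of a group, and day 6 was the highest of the 3 states in both probes.

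The iPS and ES groups differed little in most members, with a median iPS minus ES difference of -0.04 and 18 members above and 35 below 0. The extremes were -1.38 for Z00034626-1, at -2.95 and -2.95 in iPS cells against -1.60 and -1.54 in ES cells, and 0.81 for Z00022368-1, at -0.57 and -0.60 in iPS cells against -1.59 and -1.19 in ES cells. Z00022368-1 was above background on only 2 of these 4 arrays, so the size of its difference is not firm. In both probes the iPS and ES arrays did not overlap. These arrays chose the members, and the differences are given without a test. Z00053430-1 was also lower in iPS cells, at -1.54 and -1.55 against -0.68 and -0.66 in ES cells. The same probe differed between the primary fibroblasts, with 0.30 and 0.44 in MEF2 ZERT2 Tmx+, -0.15 and -0.31 in MEF2 ZERT2 Tmx-, and -1.01 to -0.93 over the 4 MEF3 arrays. MEF2 ZERT2 Tmx+, MEF2 ZERT2 Tmx- and MEF3 lay on different slides and were scanned on different days. Line and tamoxifen cannot be told apart from slide and scan day there.

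The members were selected for the absence of a clear rise on day 1, with no limit on a fall, and the day 3 cultures, unused in the selection, show when the response appeared. In cultures without tamoxifen, 52 of 53 members were higher with doxycycline on day 3, against 31.0% of all probes, and none was lower, against 27.0%. All 43 members that passed the filter through other groups were among the 52, in the cultures with tamoxifen too. The median difference was 2.00, and 26 members had at least a 4-fold difference, against 3.06% of all probes. With tamoxifen 52 were higher too, against 32.9% of probes, and none was lower, against 27.7%, with a median of 2.15 and 29 members at 4-fold or more, against 3.44%. In all 53 members, both Dox+ arrays lay above both Dox- arrays on day 3 in each arm, as in 40.6% of probes without and 42.7% with tamoxifen.

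The member that did not pass on day 3 in either arm was Z00024904-1. It read 0.24 and 0.11 in Dox+Tmx+ and -0.08 and -0.04 in Dox-Tmx+ on day 3, and 2.96 and 2.75 against -0.08 and 0.11 on day 6. It was above background on all 4 Dox+ day 6 arrays and on no other array of the series. The day 3 difference without tamoxifen was 0.04 (limma adjusted p = 0.839). On day 6 it was at least 5.44-fold higher in the Tmx cultures.

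In 37 members all 8 Tmx+ arrays of day 3 and day 6 were above background. Over these 37, the day 3 doxycycline difference came to a median of 74.3% of the day 6 difference, from 28.1% to 148.6%. It was 75% or more in 18 of them and under 50% in 8. The other 16 had arrays that were not above background, and their shares are not given. The doxycycline difference itself was compared between days within the Tmx arm. It was larger on day 6 than on day 3 in 35 members, against 13.2% of all probes, smaller in 7, against 18.8%, and not called in 11. Among the 37 measured on all 8 arrays it was larger in 25 and smaller in 4.

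Among the 37 members measured on all 8 arrays, the gain between day 3 and day 6 was largest in Z00075844-1, at 2.12 (SE 0.129, limma adjusted p = 5.74e-12), with 1.67 in Z00034626-1 next. Z00075844-1 had 0.24 and 0.26 in Dox+Tmx+ against -1.19 and -1.09 in Dox-Tmx+ on day 3. On day 6 the values were 2.20 and 2.07 against -1.43 and -1.32. The Dox+ arrays were higher on day 6 than on day 3 by more than the spread between arrays, and the Dox- arrays were slightly lower. Z00011218-1 had 0.71 and 0.65 in Dox+Tmx+ on day 3 and 2.88 and 2.81 on day 6. Its Dox-Tmx+ arrays of both days were not above background, so the size of its gain is not given. At the other end without tamoxifen on day 3, Z00075755-1 differed by 0.32, Z00049715-1 by 0.44, Z00011218-1 by 0.72 and Z00023208-1 by 0.73.

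The 7 members with a smaller difference on day 6 than on day 3 included Z00048762-1. It read 3.62 and 3.59 in Dox+Tmx+ and -1.20 and -1.26 in Dox-Tmx+ on day 3. On day 6 it read 1.95 and 1.89 against -1.32 and -1.34. The difference fell by 1.58 (SE 0.077, limma adjusted p = 1.42e-13), and the 4 arrays without tamoxifen were alike, at 3.67 and 3.69 with doxycycline on day 3 and 1.79 and 1.73 on day 6. Z00034921-1 fell by 1.03. The other 5 were Z00032251-1, Z00023868-1, Z00072066-1, Z00042765-1 and Z00057680-1, with fitted falls of between 0.39 and 0.75, and of these only Z00023868-1 and Z00042765-1 were above background on all 8 arrays. With Feature Extraction's own ratio, or with the series matrix, 3 members had a smaller difference in place of 7.

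On day 1 in the Tmx cultures, 21 members were higher with doxycycline, against 23.1% of all probes, 4 were lower, against 22.0%, and 28 were not called. The share called higher was above that of all probes and the sizes were small. The largest were 0.63 for Z00020012-1, 0.59 for Z00074275-1 and 0.58 for Z00034397-1. Z00024136-1 and Z00072066-1, also called higher, were above background on none of the arrays compared. The lowest was -0.91 for Z00022368-1, at 1.38 and 1.31 in Dox+Tmx+ against 2.14 and 2.37 in Dox-Tmx+. The groups did not overlap. The others called lower were Z00075883-1, Z00022669-1 and Z00013970-1, by between 0.18 and 0.41. The doxycycline difference was larger on day 6 than on day 1 in 53 of 53 members, and in 24% of all probes. It was smaller in none, against 21.5%. The 53 include all 43 members that also passed the filter through other groups.

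A day 6 difference can come from the induced or the uninduced side, and the members divided on this. Between day 1 and day 6 with doxycycline and tamoxifen, 52 members rose, against 30.1% of all probes, with a median of 2.47, and 1 fell, against 26.9%. Of the 43 members that also passed the filter through other groups, 42 rose. In the same interval with tamoxifen alone, 3 members rose, against 27.7%, 21 fell, against 26.2%, and 29 were not called, with a median of -0.12. The 21 include Z00021727-1, which was above background on none of those arrays. A fall of at least 2-fold was called in 6 members. The share of all probes with such a fall was not counted, so this number is not read as particular to the members.

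In 4 members the fall without doxycycline was larger than any rise with it, and 1 of these fell with doxycycline too. In Dox+Tmx+, Z00034626-1 stood at 0.21 and 0.20 (day 1), 1.33 and 1.34 (day 3), then 1.95 and 1.90 (day 6). In Dox-Tmx+ it stood at -0.25 and -0.19, then -1.54 and -1.55, then -2.70 and -2.55. The 2 courses diverged in both directions, by 1.71 with doxycycline and -2.40 without it. The uninduced day 6 values lay among those of primary fibroblasts, which ran from -2.80 to -2.38.

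Z00022368-1 was highest of all groups in uninduced cultures of day 1, at 2.14 and 2.37 with tamoxifen and 2.17 and 1.78 without. In Dox-Tmx+ the day 3 arrays read 0.23 and 0.15 and the day 6 arrays -0.57 and -0.04. In Dox+Tmx+ it was 1.38 and 1.31, then 1.17 and 1.19, then 1.98 and 1.81. The difference between day 6 and day 1 was 0.55 with doxycycline and -2.56 without it. The day 6 Dox-Tmx+ arrays lay 0.53 apart, the widest of the pairs named here without doxycycline.

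Z00016545-1 changed by 0.48 with doxycycline and by -1.33 without it. Z00054196-1 was the member that fell in both, by 1.22 with doxycycline and by 2.07 without. Its Dox+Tmx+ values were 2.17 and 2.25 (day 1), 1.63 and 1.62 (day 3), then 1.01 and 0.96 (day 6). In Dox-Tmx+ they were 1.76 and 1.83, then 0.35 and 0.31, then -0.34 and -0.22. The level fell in both courses and lay higher with doxycycline on every day. Its sequence partner Z00049101-1 fell by 1.12 with doxycycline and by 2.03 without.

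The 3 members that rose without doxycycline were Z00074275-1, by 1.57, Z00021998-1, by 0.54, and Z00022352-1, by 0.25. Z00074275-1 was at -4.31 and -4.17 in Dox-Tmx+ on day 1 and at -2.69 and -2.65 on day 6, near the -2.59 to -2.22 of primary fibroblasts. With doxycycline and tamoxifen the day 1 arrays read -3.86 and -3.45, those of day 3 -0.73 and -0.73, and those of day 6 0.88 and 0.83. The rise with doxycycline, 4.51, was the larger one. Of all 18 groups, Dox+Tmx+ day 6 had the highest mean in 36 members, Dox+Tmx+ day 3 in 9, and Dox+Tmx- day 3 and day 6 in 3 each. Z00054196-1 was highest in Dox+Tmx+ day 1 and Z00022368-1 in Dox-Tmx+ day 1.

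Members also divided by whether they were measured at all without induction. On all 12 uninduced arrays of secondary fibroblasts 35 members were above background, and 11 were above background on none of them. Above background on all 36 arrays were 20 members. Above background on no array outside the Dox+ groups of day 3 and day 6 were 7 members: Z00023850-1, Z00023298-1, Z00024904-1, Z00021727-1, Z00048829-1, Z00057680-1 and Z00032251-1. All of these but Z00024904-1 were above background on all 8 arrays of those groups. Their day 6 bounds in the Tmx cultures ran from at least 5.21-fold higher for Z00032251-1 to at least 30.4-fold for Z00021727-1.

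Tamoxifen given beside doxycycline on day 3 raised 17 of 53 members, against 5.20% of all probes, and lowered 2, against 2.14%. These counts depended on the processing. With local backgrounds as deposited 11 were higher and 0 lower, with Feature Extraction's ratio 7 and 0, and with the series matrix 8 and 1, while the probes called higher over the whole array numbered 723, 938 and 1126 in place of 1720. The other 34 did not pass limma's test. The median difference over the 53 members was 0.14, against 0.00 over all probes. In 32 members both Tmx+ arrays lay above both Tmx- arrays, as in 28.9% of probes. Of the members called higher, Z00023298-1, Z00021727-1 and Z00057680-1 passed the filter only through Dox+ groups of day 3 or day 6. The groups compared here are among those, and the tamoxifen counts for the other 43 members are not given. The Tmx+ arrays of a slide were at positions 3 and 4 and the Tmx- arrays at positions 1 and 2 in every secondary fibroblast group, and the part of position in these differences was not tested.

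Z00034921-1 had the largest rise with tamoxifen. It read -0.62 and -0.76 in Dox+Tmx+ on day 3, against -1.69 and -2.12 in Dox+Tmx-. The difference was 1.21 (SE 0.137, limma adjusted p = 1.79e-06). With the local backgrounds as deposited the value was the same and the call was lost (adjusted p = 0.138, with a range of 5.59e-07 to 0.138 over the alternatives). On day 6, given as description, it read -1.85 and -1.64 against -2.91 and -3.04.

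Z00057680-1 was 0.95 higher, at 3.26 and 3.16 in Dox+Tmx+ against 2.30 and 2.21 in Dox+Tmx- on day 3. Its sequence partners Z00010273-1, at 2.97 and 2.89 against 1.96 and 1.82, and Z00077679-1, at 1.85 and 1.92 against 1.15 and 0.90, were higher too, without overlap. Z00038437-1 was 0.86 higher, and Z00024307-1 was 0.74 higher at 0.48 and 0.43 against -0.25 and -0.32. Each of these lost the call under at least 1 alternative, with largest adjusted p-values of 0.52 for Z00057680-1, 0.399 for Z00038437-1 and 0.381 for Z00024307-1, and smallest of 6.1e-13, 5.21e-09 and 8.69e-07. Z00013970-1 was 0.84 higher, at 2.63 and 2.55 against 1.72 and 1.79, and kept its call under all 12 alternatives, with adjusted p from 6.52e-10 to 5.39e-05.

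The 2 members that were lower with tamoxifen on day 3 were Z00020634-1, by 0.38, and Z00025108-1, by 0.26. Z00020634-1 read 0.92 and 0.88 in Dox+Tmx+ against 1.13 and 1.44 in Dox+Tmx-. The groups did not overlap, but the Tmx- arrays lay 0.31 apart. Of the 2 lower calls, 1 was left without either Dox+Tmx- day 3 array or without Dox+Tmx+ day 3 replicate 1, and 0 without Dox+Tmx+ day 3 replicate 2.

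Without doxycycline on day 3, no member and no other probe passed limma's test in the comparison of Dox-Tmx+ with Dox-Tmx-, 0% of all probes, and 1 member and 824 of all probes had an unadjusted p under 0.05. Member differences ran from -0.10 to 0.20. Whether the tamoxifen difference depends on doxycycline was not tested.

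On day 6 with doxycycline the Tmx- arrays chose the members, and no test of tamoxifen is given. The share of all probes above 0 was not counted there. Of the 53 members 48 were above 0 and 5 below, with a median difference of 0.25, against 0.01 over all probes. The largest were 1.23 for Z00034921-1, 0.86 for Z00057680-1, 0.85 for Z00038437-1 and 0.79 for Z00013970-1, and the lowest was -0.52 for Z00020634-1. All 17 members called higher on day 3 were above 0 on day 6, with a median of 0.56. Most of the other members were above 0 too, so this count adds little to the day 3 calls. The choice asked for high values on the Dox+Tmx- day 6 arrays, which enter these differences. Those arrays are not shared with the day 3 comparison. The corresponding median was 0.03 on day 1 with doxycycline and 0.00 on day 6 without it.

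The conditions of the choice cut through a continuous range. Members just inside the stem cell minus fibroblast limit of 0.6 had 0.588 for Z00048762-1, 0.586 for Z00034921-1 and 0.572 for Z00024136-1. Just outside were absolute differences of 0.626 for Z00022361-1, 0.640 for Z00045153-1 and 0.649 for Z00039512-1, whose direction is not given. At the day 6 minimum, Z00049715-1, Z00057680-1 and Z00032251-1 had 2.51, 2.51 and 2.58 inside, and Z00024074-1, Z00061687-1 and Z00023529-1 had 2.48, 2.47 and 2.47 outside. At the day 1 limit, Z00020012-1, Z00020634-1 and Z00025108-1 had 0.149, 0.146 and 0.146 inside, against 0.152, 0.156 and 0.160 for Z00025227-1, Z00075085-1 and Z00035291-1. At the day 6 difference of 0.6, Z00013970-1, Z00025269-1 and Z00016545-1 had 0.605, 0.607 and 0.615, against 0.598, 0.593 and 0.591 for Z00022570-1, Z00075282-1 and Z00036496-1. All of these are deposited log10 values. Failing 1 condition alone were 71 probes at the first, 134 at the second, 319 at the third and 8236 at the last.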

How the data were processed

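The data were 36 scanner files and 1 series matrix. Per the file headers, Feature Extraction 9.5.1.1 made the spot values. The deposited mean intensity and local background intensity of both channels, not normalized, were the starting values. Feature Extraction's deposited log10 ratio, red over green per the file headers, was used with its sign turned as an alternative. The deposited series matrix values, with medians of 2.37 to 2.46 per array, had correlations of 0.952 to 0.981 with the log10 Cy3 signal and were read as log10 brightness. How they were adjusted or centred is not given in the sources.

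Local backgrounds marked as outliers were replaced by the array's median, normexp was run with an offset of 50, and ratios were normalized by loess with control and non-uniform spots at weight 0, then repeated spots averaged per probe. The filter kept 33099 of 42006 probes and removed 8907. Limma's lmFit and eBayes (limma 3.58.1, R 4.3.3) used 1 mean per group, with 18 residual and 5.05 prior degrees of freedom. No member had a missing value. On simulated data with 33097 probes, for the doxycycline difference of day 6 with tamoxifen, the test found 99 of the 100 probes with a log2 change of 1 and 99 of the 100 with a log2 change of 2. It made 7 false calls, and 0 in a comparison simulated without change. Few of the simulated probes changed, while in the data 31.1% of probes were called higher and 28.0% lower. The simulation therefore does not give the error rate of those calls.

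The members and lists were chosen with earlier results of these data known. Named are the 10 largest and 5 smallest members by the day 6 doxycycline difference with tamoxifen, the 5 largest and 5 smallest by that of day 3 without it, up to 5 rises and 5 falls with tamoxifen beside doxycycline on day 3, and the 3 probes on each side of each condition. Other probes named were chosen after their values were seen. A further pair of probes with shared sequence is not reported here. Lists of genes could not be applied, because probes carry no gene names in the files.

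Replicate numbers were checked for pairing over 17 pairs of groups. The correlation of deviations ran from -0.342 to 0.338 and exceeded 0.1 in 2, so the numbers were not taken to pair samples.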

Additional observations from a re-analysis of the deposited data

Results flagged for a closer look

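The doxycycline difference was tested between days in the cultures with tamoxifen, by limma on the difference of differences. It was larger on day 6 than on day 1 in 53 members, and larger on day 6 than on day 3 in 35 and smaller in 7. The shares called larger were lower over all probes than among members. The share called smaller on day 6 than on day 3 was higher over all probes than among members. Some of the 35 and some of the 7 were not above background on all 8 Tmx+ arrays of day 3 and day 6. Fewer than 7 were smaller with Feature Extraction's ratio and with the series matrix. Among the 37 members above background on all 8 arrays compared, Z00075844-1 gained 2.12 and Z00034626-1 gained 1.67 on the log2 scale between day 3 and day 6. Z00048762-1 changed by -1.58 and Z00034921-1 by -1.03. Day 1 arrays lay on other slides and were scanned on another day than the rest.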

How the results depend on the processing

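The counts of members higher with doxycycline on day 6 and day 3, of members with a larger doxycycline difference on day 6 than on day 1, and of members rising between day 1 and day 6 with doxycycline stayed within 1.5 times under the alternatives run. With local backgrounds as deposited, members called lower on day 1 numbered 2 in place of 4, and members rising without doxycycline 1 in place of 3. Members with a smaller doxycycline difference on day 6 than on day 3 numbered 3 in place of 7 with Feature Extraction's ratio and 3 with the series matrix. The tamoxifen calls beside doxycycline on day 3 moved most: in place of 17 higher and 2 lower there were 11 and 0 with local backgrounds as deposited, 7 and 0 with Feature Extraction's ratio, 8 and 1 with the series matrix, and 4 lower without background subtraction. For Z00021727-1 this difference was 0.38 and reversed to -0.00318 with Feature Extraction's ratio and to -0.00332 with the series matrix. The cause was not tested in any of these. Leaving out 1 array of a comparison gave 53 and 51 to 52 members higher with doxycycline on day 6 and day 3, 17 to 20 higher and 3 to 4 lower on day 1, 31 to 35 larger and 6 to 8 smaller on day 6 than on day 3, 18 to 22 falling and 2 rising without doxycycline, and 14 to 16 higher and 0 to 1 lower with tamoxifen. With replicate number as a block, 22 members were higher on day 1 and 20 fell without doxycycline in place of 21 and 21, and 17 were higher and 2 lower with tamoxifen; the block changed no other count of members. Over all probes, the series matrix, which holds fewer probes, gave 6165 higher on day 6 (in place of 10293), 6272 and 6386 on day 3 without and with tamoxifen (10275 and 10904), 4982 on day 1 (7635), 5071 larger on day 6 than on day 1 (7949), 3844 smaller on day 6 than on day 3 (6233), 6175 and 5989 rising with and without doxycycline (9957 and 9171), and 1126 higher with tamoxifen (1720). For tamoxifen beside doxycycline, local backgrounds as deposited gave 723 higher and 283 lower in place of 1720 and 709, and Feature Extraction's ratio 938 higher. Leaving out 1 array gave 983 (Dox+Tmx+ day 3 replicate 1) to 1055 higher and 249 (Dox+Tmx- day 3 replicate 1) to 448 lower. For tamoxifen without doxycycline the 0 calls became at most 15 higher (without Dox-Tmx- day 3 replicate 2) and 3 lower with 1 array left out, 4 higher and 2 lower with the series matrix, and 2 lower with Feature Extraction's ratio. A fit without 2 arrays of doubtful background (MEF3 Tmx+ replicate 1 and Dox-Tmx- day 6 replicate 1) was chosen after seeing the data and left all counts of members within 1.5 times. Slide as a random block was not run, because each group lay on 1 slide and the block could not be fitted beside 1 mean per group. Members not above background without induction have only bounds there, which limits the size of their differences.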
